A study of Mus musculus with 8 samples.

Results

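Germline genes that somatic cells keep silent by methylation of their promoters were followed in mouse fetal male germ cells: Hormad1, Slc25a31, Tex101, Taf7l, Tex11, Tex13b, Brdt, Stk31, Tex19.1 and Dpep3. They were chosen as germline genes of this kind outside the piRNA pathway and the synaptonemal complex, and were found by matching the table's Ensembl identifiers, without their version, to GENCODE M21. All 10 of 10 were in the table of 55401 genes, and all 10 were among the 24005 genes tested.

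Prospermatogonia, fetal male germ cells that have left the cell cycle, were taken at E17.5, late in gestation, and their total RNA was sequenced after depletion of ribosomal RNA, with a low-input kit that carries molecular identifiers. The 4 libraries labelled KO came from Tet1-/- animals and the 4 labelled WT from Tet1+/+ animals, and all 8 carry the same batch number. No label gives the strain, the kind of Tet1 allele, how the cells were isolated or whether a library pools animals, so p-values measure the spread between these libraries.

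Promoters of many germline genes are rich in CpG and are methylated in somatic tissues, where the methylation is placed around implantation and then kept by DNMT1. In germ cells this methylation is erased, and the genes become active. Several of these promoters hold an E-box, the letters CACGTG, which is bound by MAX with partners such as MGA, or an E2F-like site bound by E2F6; both factors belong to a variant Polycomb complex that represses germline genes. TET1 oxidises methylated cytosine and is known in germ cells for helping to remove methylation from such promoters.

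The promoters of 9 of the 10 genes were read from RefSeq windows on GRCm38.p6, each running from 250 bases before the annotated start to 50 bases after it, and Tex11 had no entry. The E-box CACGTG, which reads the same on both strands, was in 5 of these 9 windows (55.6%), against 9 of 20 windows (45.0%) of other germline genes and 8.04% of the windows of 16522 protein-coding genes. The letters GCGGGA, part of the E2F site, were in 3 of 9 windows on either strand, against 9 of 20 windows (45.0%) of the other germline genes and 26.3% of all windows. Both motifs together were in 2 of 9 (Hormad1 and Slc25a31), against 5 of 20 (25.0%) of the other germline genes and 2.77% of all. No E-box overlapped the other motif in these windows. The E-box lay 78 bases before the start in Brdt, 49 in Taf7l, 93 in Slc25a31 and 120 in Stk31. Hormad1 had 2 of them, at 57 and 20 bases before the start. No E-box was in the windows of Tex101, Tex13b, Tex19.1 and Dpep3. The Tex101 window, 24672001 to 24672300, lies at an annotated start inside the gene, whose 5′ end is at 24676675. The sequence at that end was not read. These are matches of letters and say nothing of binding.

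The 4 windows below are shown because they cross both features that vary among the genes: Brdt and Taf7l hold an E-box and Dpep3 and Tex13b do not, while Taf7l and Tex13b had more transcript and Brdt and Dpep3 less in the libraries labelled KO. Each is written 5′ to 3′ on the strand of its gene, with motif letters in capitals.
Brdt, chr5:107330944-107331243, plus strand: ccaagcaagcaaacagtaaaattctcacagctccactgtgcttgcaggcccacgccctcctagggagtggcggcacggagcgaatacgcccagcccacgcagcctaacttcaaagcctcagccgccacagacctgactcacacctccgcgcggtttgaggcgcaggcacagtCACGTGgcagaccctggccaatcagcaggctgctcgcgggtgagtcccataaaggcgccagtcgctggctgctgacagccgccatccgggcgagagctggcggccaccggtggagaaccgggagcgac
Dpep3, chr8:105979370-105979669, minus strand: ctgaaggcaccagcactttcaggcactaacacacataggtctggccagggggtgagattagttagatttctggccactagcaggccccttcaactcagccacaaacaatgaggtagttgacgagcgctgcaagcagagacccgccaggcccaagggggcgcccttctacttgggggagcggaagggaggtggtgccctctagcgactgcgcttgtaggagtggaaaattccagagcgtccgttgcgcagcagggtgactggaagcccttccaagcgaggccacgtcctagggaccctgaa
Taf7l, chrX:134476441-134476740, minus strand: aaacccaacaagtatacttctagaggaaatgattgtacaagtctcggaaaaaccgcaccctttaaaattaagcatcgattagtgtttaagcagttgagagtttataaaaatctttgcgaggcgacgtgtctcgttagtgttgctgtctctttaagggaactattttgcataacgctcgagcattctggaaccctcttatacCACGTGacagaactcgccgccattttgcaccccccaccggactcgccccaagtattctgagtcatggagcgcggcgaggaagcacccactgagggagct
Tex13b, chrX:140813384-140813683, minus strand: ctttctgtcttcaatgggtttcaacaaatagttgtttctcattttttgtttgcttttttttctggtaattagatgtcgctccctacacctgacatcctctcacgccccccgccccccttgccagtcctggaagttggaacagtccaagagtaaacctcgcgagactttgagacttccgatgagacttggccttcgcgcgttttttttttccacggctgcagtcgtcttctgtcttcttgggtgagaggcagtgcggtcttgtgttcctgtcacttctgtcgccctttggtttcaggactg

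The ratio of observed to expected CpG was 0.738 for Brdt and 0.462 for Dpep3, and 1.03 for Taf7l and 0.730 for Tex13b. Its median over the 9 windows was 0.730, against 0.591 over all protein-coding genes, and single windows ran from the 41.8th percentile (Dpep3) to the 93.6th (Taf7l). The Taf7l window combined that ratio with only 47.0% GC.

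**Figure D1:**
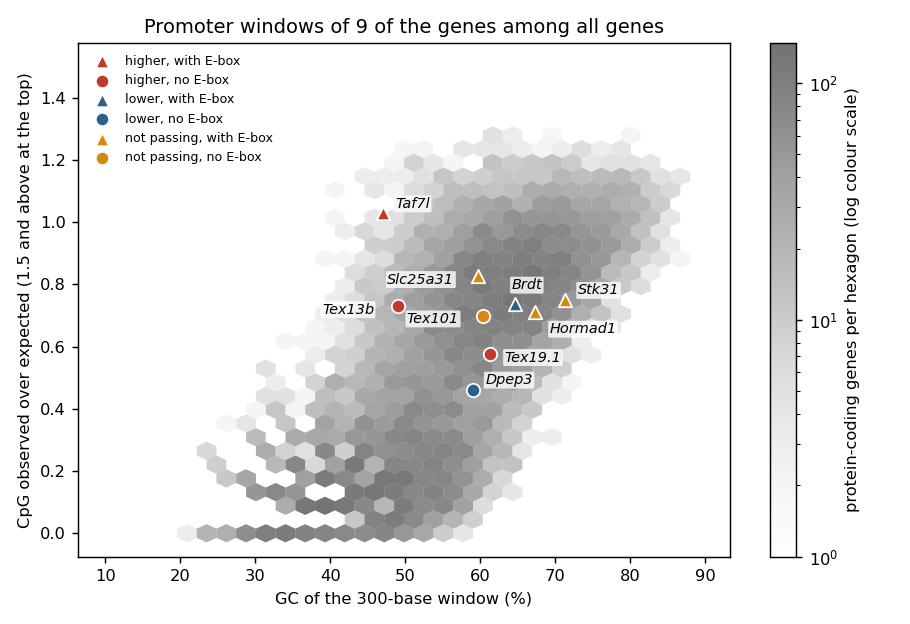
GC content (horizontal axis, percent) and observed over expected CpG (vertical axis) of the 300-base promoter windows of 16522 protein-coding genes (grey hexagons, log colour scale) and of 9 of the genes (coloured by call in KO minus WT, triangles with an E-box, circles without). Taf7l stands high at a ratio of 1.03 and Dpep3 low at 0.462, and triangles and circles occur in each of the 3 colours.

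The count of Tet1 went against the labels. It was 129, 145, 75.8 and 147 CPM (counts scaled to library size with edgeR's TMM factors) in KO 1 to KO 4, against 30.3, 30.2, 32.8 and 34.2 CPM in WT 1 to WT 4, a log2 difference of 1.97 (SE 0.178, adjusted p = 3.03e-06). Counts per gene do not show which exons were read, so every direction refers to the labels as deposited. Total counts per library were 13820764 to 19947912 (KO) and 14732396 to 20115250 (WT). Germ cell markers were abundant, with summed levels of 2067 to 2694 CPM (KO) and 1798 to 2284 CPM (WT) over 10 genes, 5 of them higher and 1 lower. By mean CPM over all 8 libraries, not per kilobase, the most abundant were Tdrd1 and Ddx4. Ddx4 was 379 to 526 CPM (KO) and 311 to 429 CPM (WT), and Tdrd1 was 348 to 488 CPM (KO) and 369 to 514 CPM (WT). KO 4 stood apart by Leydig cell markers: the 7 genes summed to 1809 CPM there, 16.1 to 23.5 CPM in the other libraries labelled KO and 17.8 to 35.8 CPM in those labelled WT, led by Cyp17a1 (862 CPM in KO 4) and Cyp11a1 (369 CPM). Sertoli markers summed to 28.2 to 57.7 CPM (KO) and 24.6 to 47.1 CPM (WT), interstitial and myoid markers to 130 to 175 CPM (KO) and 124 to 180 CPM (WT), endothelial markers to 61.6 to 72.5 CPM (KO) and 68.1 to 80.03 CPM (WT), and blood and macrophage markers to 16.96 to 25.6 CPM (KO) and 26.6 to 32.7 CPM (WT). No marker was at 0 in every library of a group. Beside all marker counts stand the shares over all genes tested, 25.3% higher and 28.2% lower. Of the tested markers, 3 of 8 Sertoli markers rose and 1 fell, and 1 of 6 endothelial markers rose and 5 fell. Among tested blood and macrophage markers 1 of 6 rose and 3 fell, and among interstitial and myoid markers 1 of 7 rose and 1 fell. Of the Leydig markers 5 of 6 passed as higher, with groups that overlapped for all 6. The part of these cells in the results below was not tested. In such bulk samples fewer cells of a type and less RNA per cell cannot be told apart.

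With edgeR at an adjusted p under 0.05, 4 of the 10 genes rose and 2 fell in KO against WT by label, and 4 did not pass. Over all genes tested 53.5% passed, 25.3% higher and 28.2% lower. The 10 genes are well expressed, and among the 4492 tested genes within their range of mean abundance (5.33 to 8.69 log2 CPM) 47.3% were higher and 15.7% lower. The counts of 4 and 2 of 10 were thus near what genes of that abundance showed. With TMM factors the 10 genes together stayed level, at 1369 to 1676 CPM (KO) and 1351 to 1669 CPM (WT), while their proportions shifted. That level depends on the scaling, since upper-quartile factors moved the median log2 difference over all genes by -0.24. The groups did not overlap for the 6 genes that passed and overlapped for the other 4; over all genes tested 48.4% had groups that did not overlap.

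**Figure D2:**
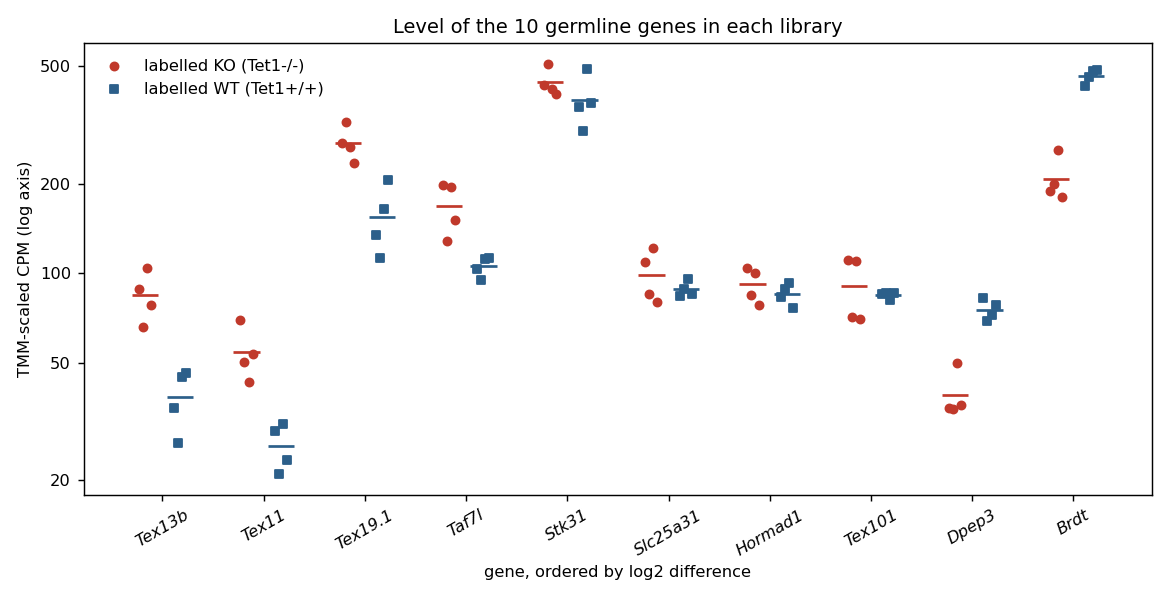
TMM-scaled CPM (vertical axis, log scale) of each gene (horizontal axis, ordered by log2 difference) in the 4 libraries labelled KO (red circles) and the 4 labelled WT (blue squares), with group means as lines. The red points lie wholly above the blue ones for Tex13b, Tex11, Tex19.1 and Taf7l, wholly below for Dpep3 and Brdt, and among them for the other genes.

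Brdt and Dpep3 were the 2 genes that fell. Brdt (ENSMUSG00000029279.15, chromosome 5, 107331159 to 107387058, plus strand) encodes the testis-specific BET bromodomain protein, which binds acetylated histones and is needed for the transcription programme of meiosis and for chromatin compaction in spermatids. It was 189, 200.3, 262 and 182 CPM in KO 1 to KO 4, against 429.8, 459.8, 484 and 486 CPM in WT 1 to WT 4. The lowest library labelled WT was well above the highest labelled KO. The means were 208 ± 36.6 CPM (KO) and 465 ± 26.3 CPM (WT; SD, n = 4 each), a log2 difference of -1.16 (SE 0.122, adjusted p = 9.47e-06). Brdt made up 11.7% to 15.6% of the summed level of the 10 genes in libraries labelled KO and 29.0% to 34.0% in those labelled WT, a proportion that no scaling of the libraries alters.

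Dpep3 (ENSMUSG00000031898.9, chromosome 8, 105973513 to 105979429, minus strand) encodes a membrane-bound dipeptidase of the germ cell surface that binds TEX101. It was 35.1, 34.7, 49.7 and 35.9 CPM in KO 1 to KO 4, against 82.5, 68.9, 72.3 and 78.0 CPM in WT 1 to WT 4. KO 3 was higher than the other libraries labelled KO and still below every library labelled WT. The means were 38.9 ± 7.23 CPM (KO) and 75.4 ± 6.00 CPM (WT; SD, n = 4 each), a log2 difference of -0.96 (SE 0.131, adjusted p = 6.21e-05). Of its exon bases 7.01% overlap Gm45752 on the other strand, a gene with 0.291 ± 0.167 CPM (KO) and 0.535 ± 0.245 CPM (WT; SD, n = 4 each).

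All 3 X-linked genes rose. Tex13b (ENSMUSG00000042386.7, chromosome X, 140808307 to 140813433, minus strand), a member of the TEX13 family found in spermatogonia, was 88.9, 65.8, 104 and 78.5 CPM in KO 1 to KO 4, against 35.2, 26.7, 44.7 and 46.3 CPM in WT 1 to WT 4. Its log2 difference of 1.14 (SE 0.178, adjusted p = 0.000170) was the largest rise of the 10 genes. Tex11 (ENSMUSG00000009670.11, chromosome X, 100838648 to 101059667, minus strand) acts in synapsis and crossover formation at meiosis. It was 69.9, 50.1, 43.0 and 53.5 CPM in KO 1 to KO 4, against 29.3, 20.97, 31.0 and 23.4 CPM in WT 1 to WT 4, a log2 difference of 1.05 (SE 0.165, adjusted p = 0.000179). Both genes were about doubled, with fitted folds of 2.20 and 2.07, and WT 2 was the lowest library for each.

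Taf7l (ENSMUSG00000009596.9, chromosome X, 134460118 to 134476490, minus strand) encodes a germ cell relative of the TFIID subunit TAF7. It was 198, 129, 196 and 151 CPM in KO 1 to KO 4, against 104, 95.2, 112 and 113 CPM in WT 1 to WT 4. The means were 169 ± 34.5 CPM (KO) and 106 ± 8.38 CPM (WT; SD, n = 4 each), a log2 difference of 0.67 (SE 0.138, adjusted p = 0.00126). KO 2, the lowest library labelled KO, was close above the highest labelled WT.

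The rise of the X-linked genes stands beside a wider difference of that chromosome. The X chromosome held 2.28% to 2.43% of all counts in libraries labelled KO and 1.91% to 2.05% in those labelled WT. Of 807 tested X-linked genes 36.6% were higher and 17.47% lower, and of 23115 autosomal genes 24.9% were higher and 28.6% lower. Within the abundance range of the 10 genes, 72 of 125 X-linked genes (57.6%) were higher, with a median log2 difference of 0.42, and 47.0% of 4362 autosomal genes, with a median of 0.26. All 3 X-linked genes were above the X median, and of the 7 autosomal genes 1 was higher and 2 were lower. Whether X-linked and autosomal genes of the 10 differ was not tested.

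**Figure D3:**
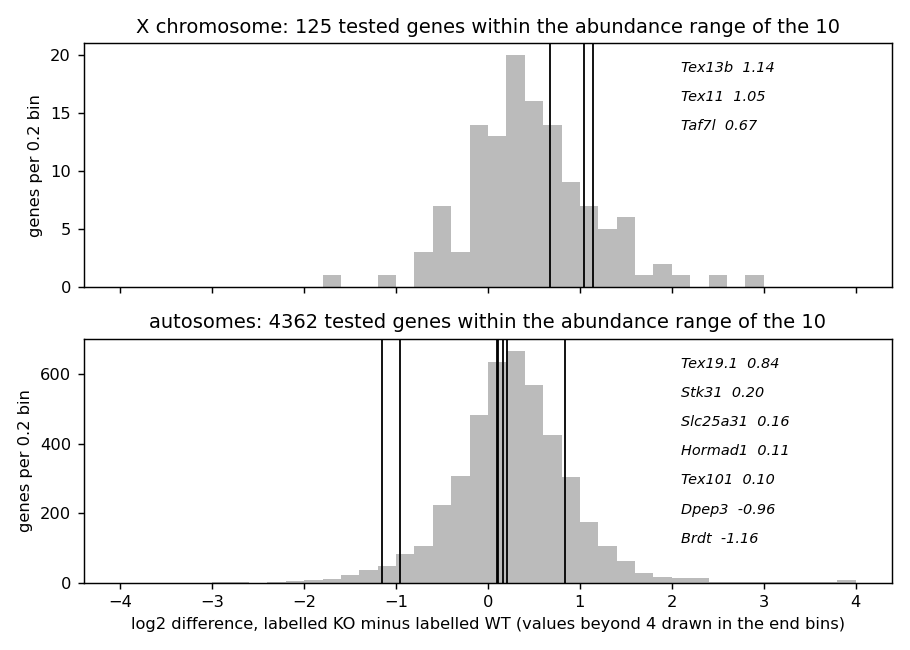
Number of genes (vertical axes) by log2 difference, labelled KO minus labelled WT (horizontal axis), for 125 X-linked (top) and 4362 autosomal genes (bottom) within the abundance range of the 10 genes, which are drawn as black lines and listed at the right. Tex13b, Tex11 and Taf7l lie at 1.14, 1.05 and 0.67 above the X-linked median of 0.42, and Dpep3 and Brdt lie in the left tail of the autosomal genes.

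Tex19.1 was the autosomal gene that rose. Tex19.1 (ENSMUSG00000039329.8, chromosome 11, 121146143 to 121148319, plus strand) is active in germ cells, pluripotent cells and placenta, and its loss raises retrotransposon transcripts and impairs meiosis. It was 277, 326, 268 and 236 CPM in KO 1 to KO 4, against 135, 112, 165 and 207 CPM in WT 1 to WT 4, a log2 difference of 0.84 (SE 0.166, adjusted p = 0.000945). The gap between KO 4 and WT 4 was narrow beside the spread among the libraries labelled WT. Its neighbour and relative Tex19.2, 27.5 kb away, also rose, to 50.8 ± 3.87 CPM (KO), against 32.7 ± 4.18 CPM (WT; SD, n = 4 each), a log2 difference of 0.64 (adjusted p = 0.000642). Of the 50-base words in Tex19.1 transcripts 2.67% also occur in Tex19.2. Only exact matches were counted, and how many reads were ambiguous between these genes was not tested.

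The other 4 genes did not pass. Hormad1 (ENSMUSG00000028109.14, chromosome 3, 95559677 to 95587671, plus strand), a HORMA-domain protein of unsynapsed meiotic chromosome axes, was 104, 84.6, 100.2 and 78.3 CPM in KO 1 to KO 4, against 83.3, 88.9, 92.7 and 76.3 CPM in WT 1 to WT 4. Its log2 difference was 0.11 (95% interval -0.14 to 0.36, adjusted p = 0.457). Slc25a31 (ENSMUSG00000069041.8, chromosome 3, 40708855 to 40726096, plus strand), the mitochondrial ADP/ATP carrier that male germ cells use in meiosis, was 109, 85.3, 122 and 79.9 CPM in KO 1 to KO 4, against 84.2, 88.4, 96.0 and 85.5 CPM in WT 1 to WT 4. KO 1 and KO 3 were thus above every library labelled WT and KO 4 below them all, with a log2 difference of 0.16 (95% interval -0.12 to 0.45, adjusted p = 0.324).

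Tex101 (ENSMUSG00000062773.6, chromosome 7, 24668007 to 24676675, minus strand), a GPI-anchored surface protein of germ cells needed for sperm migration into the oviduct, showed the widest contrast in spread. It was 111, 71.5, 110.0 and 69.9 CPM in KO 1 to KO 4, against 85.2, 86.2, 81.1 and 85.9 CPM in WT 1 to WT 4, so the libraries labelled KO lay on both sides of a narrow WT range. The log2 difference was 0.10 (95% interval -0.23 to 0.42, adjusted p = 0.608). Stk31 (ENSMUSG00000023403.14, chromosome 6, 49395604 to 49469501, plus strand), which encodes a germ cell protein with a tudor and a kinase domain, was 434, 510.1, 420.1 and 404 CPM in KO 1 to KO 4, against 366, 303, 490.3 and 376 CPM in WT 1 to WT 4. Its log2 difference was 0.20 (95% interval -0.09 to 0.50, adjusted p = 0.230), and without WT 3, the highest library labelled WT, it was 0.36 and passed (adjusted p = 0.0369). The intervals of these 4 genes exclude a doubling or a halving but allow a smaller difference in either direction.

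**Figure D4:**
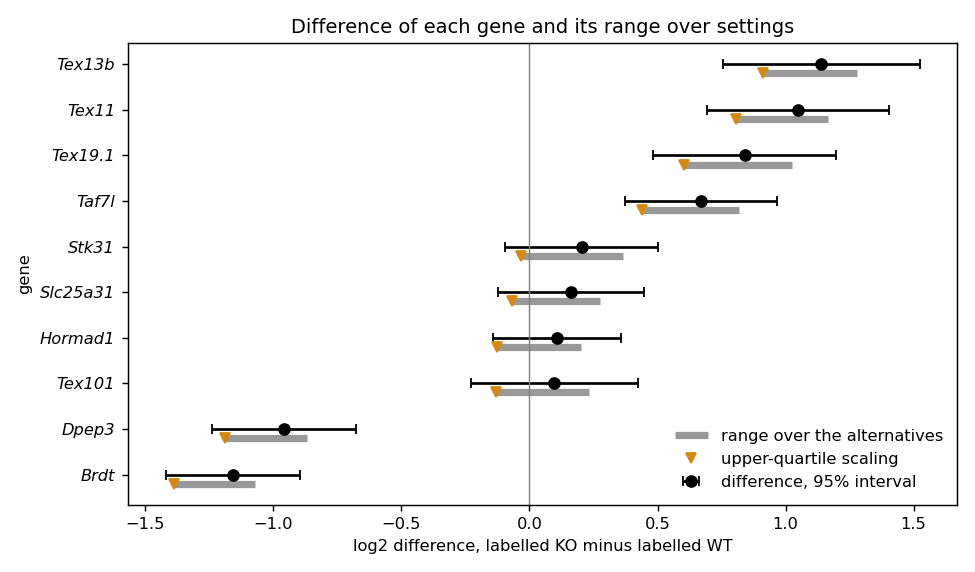
Log2 difference, labelled KO minus labelled WT (horizontal axis), of each gene (vertical axis) with its 95% interval (black) and, below it, the range over the 16 alternative settings (grey bar) and the value with upper-quartile scaling (orange triangle). Brdt and Dpep3 stay below 0 and Tex13b, Tex11, Tex19.1 and Taf7l above 0 throughout, and for the other 4 genes upper-quartile scaling gives a value below 0.

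The 6 genes that passed did so under each of the 16 alternatives, with the same sign. Without KO 4, the library with Leydig cell markers, the log2 difference was -1.07 for Brdt, -0.90 for Dpep3, 1.20 for Tex13b, 1.08 for Tex11, 0.74 for Taf7l and 0.93 for Tex19.1, each with an adjusted p of 0.00170 or lower. Without KO 4 it was 0.20 for Hormad1, 0.28 for Slc25a31, 0.23 for Tex101 and 0.27 for Stk31. Each of these was larger than with all libraries, and none passed (edgeR adjusted p 0.102 or higher). The median over all genes moved by -0.24 with upper-quartile scaling and by -0.17 with scaling on ribosomal protein genes, and of all calls 31.2% and 34.9% were then higher, against 47.3% with TMM. The sign of Hormad1 and Tex101 turned under both of these scalings, and that of Slc25a31 and Stk31 with upper-quartile scaling.

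No single library labelled KO was the highest for all the genes. KO 1 was the highest for Hormad1, Tex101, Taf7l and Tex11, KO 2 for Stk31 and Tex19.1, and KO 3 for Slc25a31, Tex13b, Brdt and Dpep3. The lowest was KO 4, the library with Leydig cell markers, for Hormad1, Slc25a31, Tex101, Brdt, Stk31 and Tex19.1. It was KO 2 for Taf7l, Tex13b and Dpep3, and KO 3 for Tex11.

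Levels of different genes were compared per kilobase of exon. Tex19.1 was first in libraries labelled KO, at 148 ± 19.8 CPM per kb, and Stk31 second, at 137 ± 14.5 CPM per kb, with overlapping ranges (SD, n = 4 each). Next came Taf7l at 75.1 CPM per kb, then Tex101, Hormad1, Slc25a31, Brdt, Tex13b and Dpep3 from 54.6 down to 22.9 CPM per kb, each overlapping its neighbour in the order, and Tex11 was last at 14.9 CPM per kb, below the range of Dpep3. In libraries labelled WT Stk31 was first at 119 ± 24.1 CPM per kb and Brdt second at 90.9 ± 5.14 CPM per kb, followed by Tex19.1 at 82.6 ± 21.8 CPM per kb, and these neighbours overlapped (SD, n = 4 each). Tex101, Hormad1, Taf7l, Dpep3 and Slc25a31 lay between 51.1 and 41.6 CPM per kb, Tex13b at 13.7 and Tex11 last at 7.22 CPM per kb, the last 2 apart from their neighbours. Brdt was thus seventh of the 10 in libraries labelled KO and second in those labelled WT.

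Hormad1 has near copies elsewhere: 22.9% of the 50-base words of its transcripts also occur in the pseudogenes Gm15529 or Gm7167. Gm15529 was 19.5 ± 9.58 CPM (KO) and 11.4 ± 1.78 CPM (WT; SD, n = 4 each), highest in KO 3 at 33.8 CPM, and whether some of these reads came from Hormad1 cannot be told from counts per gene. Slc25a31, Tex101, Taf7l, Tex11, Brdt and Stk31 shared no such word with another gene, Tex13b 0.291% and Dpep3 3.34% of its words, those with Gm45752.

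The nearest protein-coding gene on each side of each of the 10 gave 20 neighbours, of which 18 were tested: 3 rose, 6 fell and 9 did not pass. Over all genes tested 53.5% passed, 25.3% higher and 28.2% lower, so neighbours passed at about the share of all genes. Beside Brdt, Tgfbr3 fell by 0.73 on the log2 scale, with 15.2 ± 5.31 CPM (KO) and 25.2 ± 3.59 CPM (WT; SD, n = 4 each) and overlapping groups. Both neighbours of Dpep3 fell: Dpep2, its relative, with 0.402 ± 0.196 CPM (KO) and 2.46 ± 1.33 CPM (WT; SD, n = 4 each), a log2 difference of -2.62, and Slc12a4 by 0.34, which did not pass in 9 of 16 alternatives. Dlg3, 20.2 kb from Tex11, rose by 1.23, while Mid2, 40.6 kb from Tex13b, fell by 1.88, with 0.875 ± 0.647 CPM (KO) and 3.24 ± 1.90 CPM (WT; SD, n = 4 each). Intu beside Slc25a31 fell by 0.66, Golph3l beside Hormad1 rose by 0.48, and Uts2r beside Tex19.1 fell by 1.41, to 0.641 CPM (KO), against 1.68 CPM (WT). The call of Golph3l was lost with upper-quartile and ribosomal protein scaling (adjusted p up to 0.166) and that of Uts2r without WT 3 (0.0622). Neighbours of Taf7l, Tex101 and Stk31 that were tested did not pass.

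Relatives and binding partners of the 10 genes were also examined. Of 16 listed, 14 were tested, 7 rose, 4 fell and 3 did not pass. Over all genes tested 25.3% were higher and 28.2% lower. The median log2 difference was 0.30, against -0.05 over all genes and 0.27 over genes within the abundance range of the 10. Hormad2, the relative of Hormad1, rose by 1.46 on the log2 scale, to 30.6 ± 6.66 CPM (KO), against 11.1 ± 1.61 CPM (WT; SD, n = 4 each). The somatic ADP/ATP carriers rose as well, Slc25a4 by 1.56 and Slc25a5 by 1.76, beside the germ cell carrier Slc25a31 at 0.16. Taf7, the general TFIID subunit, rose by 0.90 and Taf4b, a germ cell TFIID subunit, fell by 0.37, a call that 5 of 16 alternatives did not give. Among relatives of Brdt, Brd3 rose by 0.41, a call lost in 8 of 16 alternatives, and Brd2 had a log2 difference of -0.25 that did not pass. Ly6k, whose product works with TEX101 in fertility, fell by 1.63, to 0.572 CPM (KO), against 1.76 CPM (WT). Dpep1 fell by 1.26, to 0.445 CPM (KO), against 1.08 CPM (WT), and did not pass in 7 of 15 alternatives.

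Other germline genes with methylated promoters in somatic cells, most of them of the piRNA pathway or of meiosis, split in both directions. Of 22 tested, 9 rose, 6 fell and 7 did not pass, with a median log2 difference of 0.26. With upper-quartile scaling 8 rose and 8 fell. The shares over all genes tested were 25.3% higher and 28.2% lower with TMM, and the median was -0.05. Within the abundance range used above (5.33 to 8.69 log2 CPM) 47.3% were higher and 15.7% lower, and the median was 0.27. Not every gene of this list lies in that range, and whether the list departs from either background was not tested. The gene needed for meiotic entry, Stra8, rose by 3.30 on the log2 scale, the transcription factor gene Sohlh2 by 2.87, the meiotic cohesin gene Smc1b by 1.95 and the synaptonemal gene Sycp3 by 1.44. The piRNA pathway genes Tdrd9 and Mael fell, by 1.41 and 1.13, about as far as Brdt and Dpep3. Ddx4, Dazl, Mael and Tdrd1 stand both in this list and among the germ cell markers above.

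Genes that place or keep repression at such promoters, and the TET genes that act against methylation, were examined as a single list. Of 18 tested, 10 rose, 5 fell and 3 did not pass, with a median log2 difference of 0.56. Tet1, whose count goes against the labels, is among those that rose, Tet3 among those that fell and Tet2 among those that did not pass. For comparison, a rise was called for 25.3% of all genes tested and a fall for 28.2%. Among genes as abundant as the 10, the shares were 47.3% for rises and 15.7% for falls, and the median was 0.27. Whether this list departs from genes of that abundance was not tested. Uhrf1 and Hells, which act in keeping methylation, rose by 2.05 and 1.70 on the log2 scale, Setdb1, an H3K9 methyltransferase gene, rose by 1.05, and Dnmt3l, the cofactor of de novo methylation, and Tet3 fell by 1.33 and 1.10. The factors tied to the E-box and the E2F site were picked after their values were seen. Max rose by 0.61, with 69.7 ± 6.62 CPM (KO) and 45.8 ± 4.56 CPM (WT; SD, n = 4 each), Pcgf6 rose by 0.72 and L3mbtl2 by 0.56. Mga, at 662 ± 18.9 CPM (KO) and 621 ± 23.1 CPM (WT; SD, n = 4 each), did not pass (log2 difference 0.09, adjusted p = 0.400), and its sign turned with upper-quartile and ribosomal protein scaling. E2f6 fell by 0.42 and lost its call in 7 of 16 alternatives.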

How the data were processed

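The authors deposited whole-number counts by gene for 8 libraries, not normalized; library names in its header match the labels, and no column was left unused. Tools listed without roles in the submitters' processing notes are STAR, Trim Galore, DESeq2, edgeR and featureCounts 1.5.0, with build mm10. No source used here states UMI collapsing, the strand setting or the annotation. Identifiers were matched to GENCODE M21 (GRCm38); 55141 matched and 260 did not.

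Counts were fitted with edgeR 4.0.16 in R 4.3.3: filterByExpr, TMM factors and a quasi-likelihood F test with genotype as the only term, differences being KO minus WT. P-values were adjusted by Benjamini-Hochberg over all 24005 genes, with a threshold of 0.05. The SE is the log2 difference divided by the square root of F, and 95% intervals use the fit's degrees of freedom. The pipeline was tested on simulated data. Counts within a group differed by more than sampling noise for every pair (chi-square per degree of freedom 6.54 to 22.8).

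The 10 genes and all lists were chosen with earlier results of these data known. Named besides the 10 were Tet1, nearest protein-coding neighbours (those that did not pass only as a count), up to 6 genes per list that passed with log2 differences of at least 1 in size, relatives of the 10, and the 2 markers with the highest mean CPM where markers are named. Promoter features were counted on RefSeq windows of GRCm38.p6, 1 per gene, nearest to a GENCODE start. Alternatives were DESeq2 1.42.0, RLE and upper-quartile factors, 2 other low-count filters, robust dispersion, a replicate block, leaving out each library, and, chosen after seeing the data, scaling on ribosomal protein genes. One listed relative is counted but not reported by name here. Some listed relatives and partners that did not pass or were not tested are also not named.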

Additional observations from a re-analysis of the deposited data

Results flagged for a closer look

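One library stood apart within its group. Dpep3 was 49.7 CPM in KO 3, against 34.7 to 35.9 CPM in the other 3 libraries labelled KO, a gap of 0.920 of the group's range, above the limit of 0.829 that Dixon's test sets for 4 values. Of 24 groups of 4 looked at, this was the only one, and chance alone gives about 1 in 20. Without KO 3 the log2 difference of Dpep3 was -1.07 (edgeR adjusted p = 1.3e-05).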

How the results depend on the processing

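All 6 calls among the 10 genes held in each alternative, and the only call gained was that of Stk31 without WT 3. Signs turned only for genes that did not pass: with upper-quartile scaling the log2 difference was -0.13 for Hormad1, -0.069 for Slc25a31, -0.13 for Tex101, -0.034 for Stk31 and -0.14 for Mga, and with ribosomal protein scaling -0.064 for Hormad1, -0.060 for Tex101 and -0.076 for Mga. Over all genes 6083 were higher and 6770 lower with TMM, 4033 and 8882 with upper-quartile scaling and 3938 and 7343 with ribosomal protein scaling (47.3%, 31.2% and 34.9% of calls higher). Among relatives and partners 4 fell, against 2 without a low-count filter, 2 with DESeq2 and 2 to 4 when single libraries were left out; fewer samples or another filter entered these fits, and the cause was not tested. With the replicate number as a block 5469 genes were higher and 6049 lower, and no call among the 10 genes changed. Deviations of same-numbered libraries correlated at 0.148, -0.213, -0.115 and 0.0147 for numbers 1 to 4, so the replicate numbers were not taken as pairs. The library names of KO 1 and WT 1 do share a number that no other names share, and no label says what it marks. At 1931 or more counts per gene and group, depth was not limiting for the 10 genes.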
